A study of Mus musculus with 26 samples.

Results

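Islets of old mice kept at 5.5 mM glucose were compared with islets of old mice kept at 3 mM glucose over all genes measured. The samples were those whose titles name old islets at G5 (2 samples) and old islets at G3 (2 samples), 4 of the 26 Affymetrix mouse arrays of the series, with 1 sample per array. Both groups were islets of male C57BL/6J mice aged 56 weeks given 1 day of recovery in 11 mM glucose, followed by 2 days of culture in either 5.5 mM or 3 mM. Old islets at 11 mM and fresh old islets, each with 2 arrays, served to place these levels, and islets of young mice (5 weeks, same strain and sex, same culture) at 5.5 mM and 3 mM, each with 2 arrays, served as the other age. The labels call the replicates biological and do not say whether each holds islets of several mice. The p-values therefore speak only of the scatter between samples, estimated from all 26 arrays of the series. Both culture concentrations lie at or below the usual blood glucose of a mouse, and the comparison asks which genes already differ over this low step.

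Pancreatic islets are small clusters of endocrine cells in which insulin-secreting beta cells are the most numerous, beside glucagon-secreting alpha cells and somatostatin-secreting delta cells. Glucose enters mouse beta cells through the transporter GLUT2, and its metabolism closes ATP-sensitive potassium channels, lets calcium in and releases insulin granules. The same metabolism also sets the expression of many beta cell genes, among them those of glucose sensing, hormone processing and stress signalling.

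The deposited values are intensities on a linear scale, which the authors had scaled so that the trimmed mean of every array is 150. A gene is said to have risen, fallen or changed where limma's Benjamini-Hochberg adjusted p, over the 12580 genes tested, is under 0.05, and changes are differences of log2(intensity + 16), 5.5 minus 3 mM, with their standard error (SE). The offset of 16 makes changes of dim genes look smaller. Each array measured whole islets, so fewer cells of a type and less RNA per cell cannot be told apart.

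The 4 arrays were alike in their controls. The Gapdh control's 5' probe set divided by its 3' probe set gave 1.42 and 1.33 at 5.5 mM and 1.41 and 1.41 at 3 mM, and the hybridization control cre-3 was at 9407 and 9578, against 8830 and 9424. The median intensity was 33 and 33 at 5.5 mM and 31 and 34 at 3 mM. Of all probe sets, 0.643% and 0.652% were listed at 0 on the 5.5 mM arrays, against 1.11% and 0.379% on the 3 mM arrays, so the 3 mM pair held both the array with the most zeros and the one with the fewest. Log2 values correlated across genes at 0.9885 between both 5.5 mM arrays, at 0.9876 between both 3 mM arrays and at 0.9767 to 0.9801 between the groups. Islet markers were bright on each array. Gcg, the glucagon gene, was at 9021 and 9066 at 5.5 mM and at 8136 and 9457 at 3 mM, while the highest intensity of any probe set was 9551 to 10699 over these 4 arrays. Iapp, the beta cell peptide amylin, was at 8808 and 8586, against 8818 and 9462.

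Between 5.5 and 3 mM, 590 of the 12580 genes changed (4.69%), of which 301 rose (2.39%) and 289 fell (2.3%). At least a 2-fold change, on the offset scale, was found for 33 genes that rose and 27 that fell. The largest rises included the islet glucose-6-phosphatase gene G6pc2 and the glucose transporter gene Slc2a2, and the largest falls included the starvation-linked gene Depp1, the phosphatase gene Dusp4 and 3 host genes of small nucleolar RNAs. The median change of all genes tested was 0.03. For all 590 the intensities of both groups did not overlap, which held for 6587 of all genes tested (52.4%, 29.2% higher and 23.1% lower at 5.5 mM), so separation of 2 against 2 arrays alone says little. Without an array of old islets the count was 205 (replicate 1 at 5.5 mM), 89 (replicate 2 at 5.5 mM), 54 (replicate 1 at 3 mM) or 311 (replicate 2 at 3 mM). With 1 mean for young islets at 11 mM, whose 4 arrays differ in the Gapdh control ratio, the shared estimate of spread is larger and 83 genes changed.

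**Figure D1:**
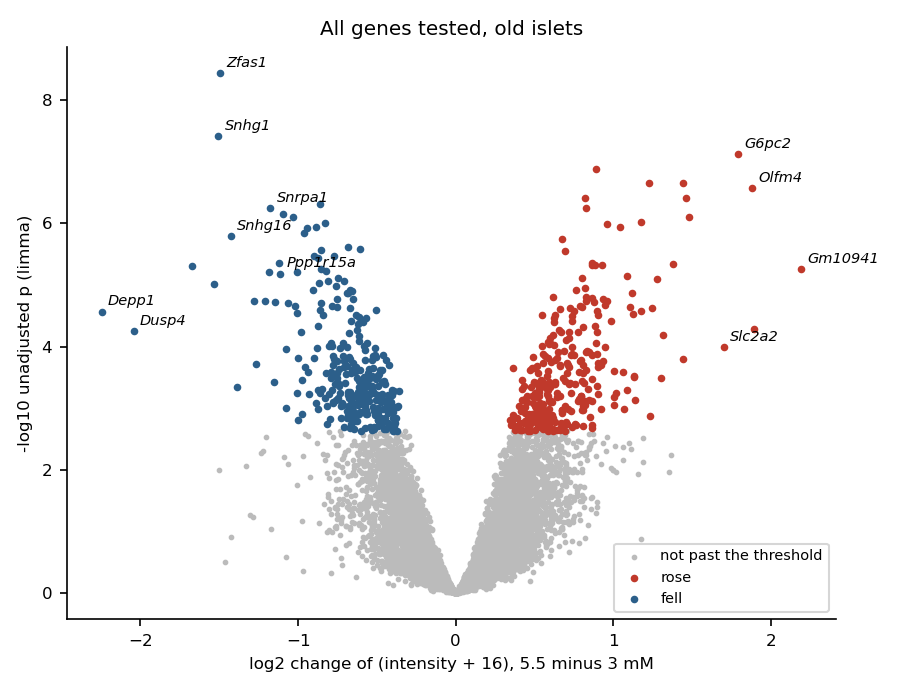
Each point is 1 of the 12580 genes, with the log2 change of (intensity + 16) between old islets at 5.5 and 3 mM (n = 2 arrays each) on the horizontal axis and the -log10 of limma's unadjusted p on the vertical axis. Red points are the 301 genes that rose and blue points the 289 that fell, and Zfas1, with an adjusted p of 4.55e-05, lies highest.

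Genes of glucose entry and glucose-6-phosphate turnover had large changes. G6pc2, which encodes a glucose-6-phosphatase of islet cells, was at 4754 and 5352 at 5.5 mM, against 1321 and 1585 at 3 mM. Slc2a2, which encodes GLUT2, was at 2520 and 2460 at 5.5 mM and at 817 and 695 at 3 mM. Both genes were higher on each 5.5 mM array than on either 3 mM array, and the 5.5 mM arrays of Slc2a2 lay close together. G6pc2 rose by 1.79 (SE 0.22, adjusted p = 0.000313) and Slc2a2 by 1.70 (SE 0.35, adjusted p = 0.00889). G6pc2 passed whichever 1 of the 4 arrays was left out, and Slc2a2 did not pass whichever was left out (adjusted p = 0.0599 to 0.0784).

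The list of glucose sensing and beta cell transcription factors, which holds both genes, had 15 measured members. Of these, 6 rose (40%, beside 2.39% of all genes tested) and 9 did not pass, with a median change of 0.48 beside 0.03 for all genes. All 15 were higher at 5.5 mM, as were 6850 of the 12580 genes tested. Nkx2-2, a homeodomain factor of endocrine cells, was at 781 and 720 at 5.5 mM, against 443 and 459 at 3 mM, and rose by 0.71 (SE 0.16, adjusted p = 0.0127). Neurod1, a factor that drives endocrine differentiation and insulin gene transcription, rose by 0.47 (SE 0.10), Foxa2, a forkhead factor, by 0.42 (SE 0.10), and Hnf4a, a nuclear receptor whose human gene is mutated in a form of monogenic diabetes, by 0.68 (SE 0.19). Pdx1, the homeodomain factor at the centre of beta cell identity, had 704 and 721 at 5.5 mM and 393 and 416 at 3 mM, a difference of 0.79 (SE 0.25) that did not pass (adjusted p = 0.0797). Trpm5, a calcium-activated cation channel of beta cells, had the largest difference of the members that did not pass, 1.01 (SE 0.31, adjusted p = 0.0681). Of the 15, 1 to 2 rose with an array left out and 2 with a single mean for young islets at 11 mM. Nkx2-2 and Foxa2 did not pass whichever array was left out (adjusted p = 0.0546 to 0.138), Neurod1 passed only without replicate 1 at 5.5 mM (highest adjusted p = 0.241) and Hnf4a only without replicate 2 at 3 mM (highest adjusted p = 0.459).

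Insulin and the other hormones did not pass. Ins2, an insulin gene of the mouse, was at 3223 and 3083 at 5.5 mM and at 3622 and 5085 at 3 mM, so that both 5.5 mM arrays were lower and the 3 mM arrays far apart. The difference was -0.44 (SE 0.22, adjusted p = 0.301). The probe set of Ins2 can also bind related transcripts and read well below that of Gcg on each of these arrays. Whether it follows the level of insulin RNA was not tested. Gcg differed by 0.04 (SE 0.18, adjusted p = 0.939) and Sst, the somatostatin gene, by -0.05 (SE 0.13, adjusted p = 0.904). Gcg lay near the highest intensity of any probe set on each of these arrays. Whether a change at such a level would be seen was not tested. Of 16 measured genes of prohormone processing and secretory granules none passed, and the median change was 0.10. Of these genes 13 were higher and 3 lower, beside 6850 higher and 5729 lower of the 12580 genes tested. Pcsk1, the convertase that makes the first cut in proinsulin, was at 639 and 681 at 5.5 mM, against 463 and 471 at 3 mM (0.48, SE 0.17, adjusted p = 0.115).

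Genes of exocytosis and ion channels had 5 rises among 17 measured members (29.4%, beside 2.39% of all genes tested), no falls and a median change of 0.27. Cacna1c, a pore subunit of the L-type calcium channel, had 177 and 198 at 5.5 mM, against 77 and 114 at 3 mM, and rose by 0.89 (SE 0.17, adjusted p = 0.00521). Its other probe set differed by -0.51, so the rise rests on 1 of 2 probe sets. Cplx2, complexin 2, which clamps and primes the fusion machinery, was at 807 and 733 at 5.5 mM and at 397 and 446 at 3 mM and rose by 0.85 (SE 0.18, adjusted p = 0.0099), with its other 2 probe sets also higher, at 0.43 and 0.51. Rph3al, the Rab effector Noc2, rose by 0.53 (SE 0.13), Sytl4, the granule protein granuphilin, by 0.55 (SE 0.15) and its binding partner Rab27a by 0.50 (SE 0.12). The subunits of the ATP-sensitive potassium channel, Abcc8 (0.23) and Kcnj11 (0.09), and the fusion proteins Snap25 (0.01) and Stx1a (-0.08) did not pass. Cacna1c missed the threshold without replicate 2 at 5.5 mM or replicate 1 at 3 mM (highest adjusted p = 0.15), Cplx2 passed only without replicate 2 at 3 mM (highest adjusted p = 0.141), and Rph3al, Sytl4 and Rab27a did not pass whichever array was left out (0.0509 to 0.295). With a single mean for young islets at 11 mM none of the 17 passed.

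Among 10 measured hormone, incretin and fatty acid receptors, 2 rose (20%, beside 2.39% of all genes tested) and none fell. The median change was 0.17. None of the 10 passed with the single mean for young islets used above. Igf1r, the receptor of insulin-like growth factor 1, was at 922 and 746 at 5.5 mM and at 425 and 506 at 3 mM, and rose by 0.82 (SE 0.19, adjusted p = 0.0179). Glp1r, the receptor of the incretin GLP-1, was at 331 and 289 at 5.5 mM, against 189 and 142 at 3 mM, and rose by 0.85 (SE 0.23, adjusted p = 0.0356). Glp1r did not pass whichever array was left out (adjusted p = 0.107 to 0.231), and Igf1r passed only without replicate 2 at 3 mM (highest adjusted p = 0.221). Gcgr, the glucagon receptor, differed by 1.06 (SE 0.33) and did not pass (adjusted p = 0.0688). The insulin receptor gene Insr was at -0.23 and did not pass.

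The 15 largest rises also held genes outside these lists. The largest was that of Gm10941, a predicted gene, at 128 and 137 at 5.5 mM and 16 and 17 at 3 mM (2.19, SE 0.36, adjusted p = 0.00175). Cib3, of a family of calcium- and integrin-binding proteins, had 134 and 123 at 5.5 mM and 19 and 27 at 3 mM (1.90, SE 0.37, adjusted p = 0.00581). Both genes lay below the median intensity of the array at 3 mM and well above it at 5.5 mM, so their changes are understated by the offset. Olfm4, a secreted glycoprotein known as a stem cell marker of the gut, was at 738 and 749 at 5.5 mM, against 213 and 170 at 3 mM, and rose by 1.88 (SE 0.25, adjusted p = 0.000478). Fkbp1b, which binds the ryanodine receptor calcium channel, was at 588 and 776 at 5.5 mM and at 176 and 305 at 3 mM (1.48, SE 0.21, adjusted p = 0.000662).

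Membrane and signalling proteins made up much of the rest. The water channel gene Aqp4 was at 127 and 187 at 5.5 mM, against 35 and 59 at 3 mM, and rose by 1.46 (SE 0.20). The membrane mucin gene Muc4 was at 249 and 262 at 5.5 mM and at 91 and 77 at 3 mM and rose by 1.44 (SE 0.19), though its probe set can also bind related transcripts. Ret, the receptor tyrosine kinase of the GDNF family of growth factors, had 714 and 911 at 5.5 mM and 316 and 346 at 3 mM and rose by 1.25 (SE 0.23, adjusted p = 0.0035). Kdm2b, a histone demethylase that also recruits a Polycomb complex, was the brightest of this group, at 1879 and 2171 at 5.5 mM, against 812 and 726 at 3 mM. It rose by 1.38 (SE 0.22, adjusted p = 0.00163), and its other probe set was at 1.53. The ferlin gene Fer1l6 rose by 1.44 (SE 0.31), the ubiquitin ligase gene Rnf182 by 1.31 (SE 0.26) and the neuronal calcium sensor gene Vsnl1 by 1.30 (SE 0.30). Ociad2 rose by 1.28 (SE 0.22) and the carboxylesterase gene Ces5a by 1.23 (SE 0.33). The probe set of Ces5a can also bind related transcripts. Gm10941, Olfm4, Fkbp1b, Aqp4, Muc4 and Kdm2b passed whichever array was left out, with a highest adjusted p of 0.0377. Fer1l6 and Vsnl1 did not pass whichever array was left out (adjusted p = 0.0575 to 0.15), Ociad2 missed the threshold without replicate 1 at 3 mM (0.0784), and Cib3, Ret, Rnf182 and Ces5a did not pass without that array or without replicate 2 at 5.5 mM (highest adjusted p = 0.104, 0.0774, 0.103 and 0.384). Cib3 was also lost without replicate 1 at 5.5 mM and Ces5a without replicate 2 at 3 mM.

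**Figure D2:**
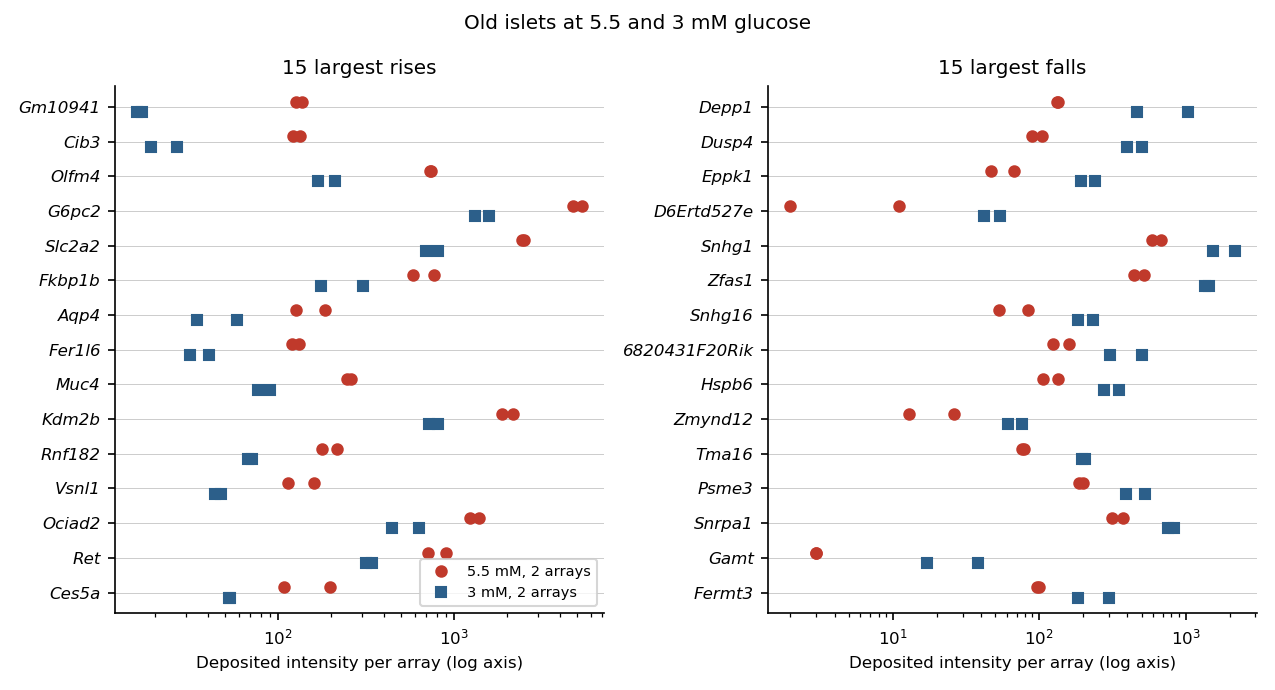
Deposited intensity on a log axis of the 15 largest rises and the 15 largest falls, with 1 red circle for each 5.5 mM array and 1 blue square for each 3 mM array of old islets. In each row the circles and squares do not overlap, and the squares of Depp1, at 1031 and 465, are the most spread of the bright genes.

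The largest fall was that of Depp1, which encodes an autophagy regulator known as a target of FOXO factors. It was at 134 and 133 at 5.5 mM, against 1031 and 465 at 3 mM. The 5.5 mM arrays were nearly equal, while replicate 1 at 3 mM was far above replicate 2. Depp1 fell by 2.25 on the log2 scale (SE 0.42, adjusted p = 0.00371), and its other probe set was at -1.97. FOXO factors are switched off by insulin signalling and act in nutrient shortage. The list of FOXO and low-fuel genes had 4 falls among 21 measured members (19.0%, beside 2.3% of all genes tested) and no rises. The other 17 did not pass, and the median change was -0.11. Irs2, the insulin receptor substrate of the beta cell, had 137 and 96 at 5.5 mM and 270 and 185 at 3 mM and fell by 0.87 (SE 0.21, adjusted p = 0.0209). Gadd45a, a stress and DNA damage gene, was at 436 and 329 at 5.5 mM and at 808 and 745 at 3 mM and fell by 1.00 (SE 0.25, adjusted p = 0.022). Cdkn1a, the cell cycle inhibitor p21, fell by 0.93 (SE 0.23, adjusted p = 0.0225). Other FOXO-linked members did not pass, among them Sesn3 (0.60), Klf15 (-0.60), Bcl6 (-0.68) and Gadd45b (-1.17). Depp1 and Irs2 missed the threshold without replicate 2 at 5.5 mM or without replicate 1 at 3 mM (highest adjusted p = 0.125 and 0.317), Gadd45a passed only without replicate 1 at 5.5 mM (highest adjusted p = 0.259), and Cdkn1a did not pass whichever array was left out (adjusted p = 0.0707 to 0.194). None of the 4 passed with a single mean for young islets at 11 mM.

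Dusp4, a phosphatase that inactivates the MAP kinase ERK, fell next to Depp1. It was at 105 and 89 at 5.5 mM and at 501 and 401 at 3 mM, a fall by 2.04 on the log2 scale (SE 0.40, adjusted p = 0.00604). Dusp16, which acts on the kinase JNK, was at 208 and 218 at 5.5 mM, against 312 and 480 at 3 mM, and fell by 0.82 (SE 0.21, adjusted p = 0.0279). These were the 2 falls among 25 measured MAP kinase phosphatases and immediate early genes (8%, beside 2.3% of all genes tested). None of the 25 rose, and the median change was -0.17. Jun (-1.06), Myc (-0.68), Fos (-0.61) and Dusp1 (-0.21) did not pass. Dusp4 was lost without replicate 2 at 5.5 mM or replicate 1 at 3 mM (highest adjusted p = 0.104) and Dusp16 passed only without replicate 1 at 3 mM (highest adjusted p = 0.277).

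Host genes of small nucleolar RNAs held 3 of the 15 largest falls. Such genes carry in their introns the small RNAs that guide chemical modification of ribosomal RNA, while most of their spliced transcripts encode no protein. Zfas1 was at 524 and 446 at 5.5 mM, against 1347 and 1439 at 3 mM. Snhg1 was at 675 and 594 at 5.5 mM and at 2168 and 1542 at 3 mM. Snhg16 was dimmer, at 84 and 53 at 5.5 mM and 234 and 183 at 3 mM. Each of the 3 genes was lower on both 5.5 mM arrays by a margin wider than the spread within either group. Zfas1 fell by 1.50 (SE 0.15), with the smallest adjusted p of all genes tested (4.55e-05), Snhg1 by 1.51 (SE 0.18, adjusted p = 0.000243) and Snhg16 by 1.43 (SE 0.21, adjusted p = 0.00089), and these 3 passed whichever array was left out. With a single mean for young islets at 11 mM Snhg1 did not pass (adjusted p = 0.0812), and with the mean of a gene's probe sets Snhg16 did not (-0.51, adjusted p = 0.0671). Snhg1 was also lower by 2 further probe sets, at -1.70 and -1.58, while 2 dim ones were at -0.14 and -0.19, and the dimmer probe set of Snhg16 was at 0.41.

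Of the 16 measured host genes 7 fell (43.8%, beside 2.3% of all genes tested), none rose and 9 did not pass, with a median change of -0.46. Snhg17 fell by 0.97 (SE 0.23), Snhg12 by 0.71 (SE 0.15), Snhg6 by 0.69 (SE 0.18) and Cct6a, a chaperonin subunit gene and so a host that encodes a protein, by 0.47 (SE 0.10). Gas5, another host gene, was at 0.00, Snhg8 at 0.10 and Snhg18 at 0.49, and none of these passed. The 33 measured cytosolic ribosomal protein genes, which include no called gene, had a median change of 0.04. With an array left out 3 to 5 of the 16 fell, and 2 with a single mean for young islets at 11 mM. Snhg6 did not pass whichever array was left out (adjusted p = 0.063 to 0.308), Snhg12 and Snhg17 passed only without replicate 1 at 5.5 mM (highest adjusted p = 0.214 and 0.265), and Cct6a only without replicate 2 at 3 mM (highest adjusted p = 0.196).

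Other large falls were those of genes of RNA, protein and cell structure. Snrpa1, a protein of the U2 particle of the spliceosome, was at 312 and 374 at 5.5 mM, against 829 and 756 at 3 mM. It fell by 1.18 (SE 0.16, adjusted p = 0.000584), with both other probe sets at -1.03 and -0.99, and passed whichever array was left out. Eppk1, the cytoskeletal linker epiplakin, was at 47 and 67 at 5.5 mM and at 240 and 192 at 3 mM and fell by 1.67 (SE 0.27, adjusted p = 0.00165). Psme3, a proteasome activator subunit, fell by 1.18 (SE 0.19) and Tma16, a gene named for a yeast protein bound to ribosomes, by 1.21 (SE 0.22), but the other probe set of Psme3 was at 0.31 and those of Tma16 at -0.10 and -0.38. Hspb6, a small heat shock protein, had 134 and 107 at 5.5 mM and 352 and 279 at 3 mM and fell by 1.28 (SE 0.23, adjusted p = 0.00324). Fermt3, the integrin activator kindlin-3 of blood cells, had 96 and 100 at 5.5 mM and 301 and 184 at 3 mM and fell by 1.14 (SE 0.21), while none of 16 macrophage and leukocyte markers passed. The unnamed transcript 6820431F20Rik was at 159 and 124 at 5.5 mM, against 506 and 305 at 3 mM, and fell by 1.39 (SE 0.33, adjusted p = 0.0195). Falls of 1.53 for D6Ertd527e and 1.27 for Zmynd12 came from dim probe sets, and Gamt, an enzyme of creatine synthesis that fell by 1.15, was at only 3 and 3 at 5.5 mM, against 17 and 38 at 3 mM. With replicate 1 at 3 mM left out, Eppk1, Psme3, Tma16 and Fermt3 did not pass (highest adjusted p = 0.0553, 0.0752, 0.0709 and 0.117), nor did Hspb6, Zmynd12 and 6820431F20Rik, which were also lost without replicate 2 at 5.5 mM (highest adjusted p = 0.0887, 0.2 and 0.291). D6Ertd527e was lost without replicate 2 at 5.5 mM (0.0635), 6820431F20Rik also without replicate 1 at 5.5 mM, and Gamt passed only without replicate 1 at 3 mM (highest adjusted p = 0.194).

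Stress genes did not move as 1 group. Ddit3, which encodes the pro-apoptotic stress factor CHOP, was at 3571 and 2209 at 5.5 mM, against 5125 and 4540 at 3 mM, and fell by 0.78 (SE 0.20, adjusted p = 0.0262). Ppp1r15a, which encodes the phosphatase subunit GADD34 that restores translation after stress, was at 318 and 250 at 5.5 mM and at 651 and 608 at 3 mM and fell by 1.11 (SE 0.18, adjusted p = 0.00186). Chac1, a glutathione-degrading enzyme known as an ATF4 target, was at 897 and 778 at 5.5 mM, against 498 and 545 at 3 mM, and rose by 0.66 (SE 0.16, adjusted p = 0.023). So 2 of the 16 measured members of the CHOP and ATF4 list fell (12.5%, beside 2.3% of all genes tested). Of the others 1 rose (6.25%, beside 2.39%) and 13 did not pass, and the median change of the list was -0.0006. With the single mean for young islets used above, 1 of the 16 fell and none rose. Trib3, a pseudokinase downstream of CHOP, was at 1230 and 1047 at 5.5 mM and 1063 and 1039 at 3 mM. Its probe set can also bind related transcripts. Nupr1, a stress-induced chromatin protein, was at 6709 and 4420, against 6567 and 5969. Both overlapped between the groups, with differences of 0.11 (SE 0.30) and -0.20 (SE 0.21) that did not pass, and Atf3 was at -1.20 and did not pass either. Ppp1r15a missed the threshold without replicate 2 at 5.5 mM (adjusted p = 0.0535), Ddit3 passed only without replicate 1 at 5.5 mM (highest adjusted p = 0.407), Chac1 did not pass whichever array was left out (0.0674 to 0.222), and the second probe set of Ddit3 was at -0.04.

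Of 27 measured endoplasmic reticulum chaperones and secretory transport genes none passed, and the median change was 0.06, with the chaperone gene Hspa5 at -0.13 and Xbp1, a factor of the unfolded protein response, at 0.07. Among 23 measured genes of amino acid synthesis and transport, Slc3a2 alone passed (4.35%, near the 4.69% of all genes tested that changed). It encodes the heavy chain of the CD98 amino acid transporters, was at 1744 and 1474 at 5.5 mM and at 2601 and 2804 at 3 mM, and fell by 0.75 (SE 0.12, adjusted p = 0.00206). Its light chain Slc7a5 was at 0.21 and the ATF4 target Asns at 0.15, and the median of the list was 0.19. Slc3a2 missed the threshold without replicate 2 at 5.5 mM (adjusted p = 0.0587).

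Promoter sequences were then read for the genes that changed. The search took the 250 bases before to 50 bases after the start, from RefSeq on GRCm38.p6, for the cAMP response element core TGACGT on either strand. Where a gene has several promoters, only the first listed was counted, so a match in another was missed. TGACGT was in 50 of 252 promoters of genes that fell (19.8%) and in 26 of 243 of genes that rose (10.7%). It was in 1211 of 10203 of all genes tested (11.9%) and in 2066 of 27025 of all genes with a promoter (7.64%). The E-box CACGTG, a palindrome, was in 11.5% for genes that fell and 11.9% for genes that rose, against 10.2% for genes tested. TGATGCA, the core of a combined C/EBP and ATF element, was in 1.59% and 1.23%, against 1.89%, and the forkhead element GTAAACA in 1.98% and 1.65%, against 2.54%. The metal response element core TGCNCNC was in 58.7% for genes that fell and 67.9% for genes that rose, against 60.3%. A run of at least 8 pyrimidines touching the 10 bases around the start was in 7.54% for genes that fell and 13.6% for genes that rose, against 9.88% for genes tested. No share was tested. A match of letters is a description and not a binding site. Of the named genes that rose 2 hold TGACGT as well and are not shown, Fkbp1b (at -104 from the start) and Gaa (at -77). Shown are 3 genes with values above that fell and hold TGACGT. Ppp1r15a is on the minus strand at chr7:45526219-45526518, Snrpa1 on the plus strand at chr7:66060086-66060385 and Cct6a on the plus strand at chr5:129787106-129787405. Capitals mark the match, which starts at -12, 5 and -115 relative to the transcription start in that order, and in Ppp1r15a it overlaps its own reverse complement, so that both strands match.
Ppp1r15a: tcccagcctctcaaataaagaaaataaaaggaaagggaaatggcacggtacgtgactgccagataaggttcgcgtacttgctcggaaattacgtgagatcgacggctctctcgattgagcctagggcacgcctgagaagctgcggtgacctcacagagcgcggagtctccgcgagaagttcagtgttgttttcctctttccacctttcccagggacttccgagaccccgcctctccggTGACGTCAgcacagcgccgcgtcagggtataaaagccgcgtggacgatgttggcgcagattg
Snrpa1: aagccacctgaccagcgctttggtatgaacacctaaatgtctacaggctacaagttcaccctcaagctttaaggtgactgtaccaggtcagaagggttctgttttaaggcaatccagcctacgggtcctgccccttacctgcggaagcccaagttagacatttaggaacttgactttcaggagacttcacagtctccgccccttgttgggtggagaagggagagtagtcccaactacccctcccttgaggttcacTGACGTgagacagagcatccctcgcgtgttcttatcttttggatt
Cct6a: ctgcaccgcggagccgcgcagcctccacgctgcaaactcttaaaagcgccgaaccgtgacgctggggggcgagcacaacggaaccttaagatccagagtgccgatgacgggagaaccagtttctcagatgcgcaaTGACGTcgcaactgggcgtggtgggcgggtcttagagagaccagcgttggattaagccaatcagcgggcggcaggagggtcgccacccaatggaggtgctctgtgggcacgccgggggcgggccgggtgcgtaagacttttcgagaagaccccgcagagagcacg

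ChREBP is a glucose-responsive transcription factor of liver, fat and islets. Among 18 measured ChREBP targets and genes of lipogenesis 1 rose (5.56%, beside 4.69% of all genes tested that changed), none fell and the median change was 0.13. The gene was Elovl6, a fatty acid elongase, at 177 and 190 at 5.5 mM and 102 and 143 at 3 mM (0.54, SE 0.14, adjusted p = 0.0287). Txnip, a thioredoxin-binding protein and a known ChREBP target, was at 266 and 336 at 5.5 mM, against 364 and 319 at 3 mM. Its groups overlapped, and the difference of -0.18 (SE 0.20, adjusted p = 0.7) did not pass. Fasn (0.31), Acly (0.36), Scd2 (0.39) and Mlxipl, which encodes ChREBP itself (0.78), did not pass. Elovl6 passed only without replicate 2 at 3 mM (highest adjusted p = 0.424).

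No member passed in glycolysis (15 measured genes, median change -0.02) or fatty acid oxidation and fuel switch (19, median 0.10). Nor did any in metallothioneins and zinc transporters (12, median 0.05) or NRF2 and antioxidant genes (16, median 0.03). As 4.69% of all genes tested changed, lists this short can hold no call without standing out. The glucose transporter gene Slc2a1 was at -0.76 and the lactate dehydrogenase gene Ldha at -0.18. Of 31 measured oxidative phosphorylation genes Ndufa4, a subunit of the terminal oxidase, rose by 0.44 (SE 0.12, adjusted p = 0.0393), and the median was 0.01. Of 20 cholesterol synthesis genes the cyclase gene Lss fell by 0.68 (SE 0.17, adjusted p = 0.024), but its other probe set was at 0.55, in the opposite direction, and the median of the list was -0.0041. Of 16 glycogen genes Gaa, the lysosomal glucosidase, rose by 0.41 (SE 0.11, adjusted p = 0.0419), read by a probe set that can also bind related transcripts. Ndufa4, Lss and Gaa were each the only call of their list, at 3.23%, 5% and 6.25% of the members, beside 4.69% of all genes tested. Stbd1, which tethers glycogen to membranes, was at 519 and 394 at 5.5 mM and at 765 and 704 at 3 mM, a difference of -0.68 (SE 0.27) that did not pass (adjusted p = 0.168). Ndufa4 and Gaa did not pass whichever array was left out (adjusted p = 0.0795 to 0.324), and Lss passed only without replicate 2 at 3 mM (highest adjusted p = 0.293).

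Single members passed in 4 further lists. They made up 4.55% to 7.14% of the measured members of a list, near the 4.69% of all genes tested that changed. Of 14 hypoxia genes P4ha1, a collagen prolyl hydroxylase, was at 323 and 519 at 5.5 mM, against 747 and 876 at 3 mM, and fell by 0.95 (SE 0.21, adjusted p = 0.0132), while Vegfa was at 0.15. Of 18 circadian clock genes the repressor gene Bhlhe40 fell by 0.75 (SE 0.19, adjusted p = 0.0239), with Per1 at -0.04 and Dbp at 0.17. Of 21 lysosome and autophagy genes Map1lc3b, the autophagosome protein LC3B, rose by 0.36 (SE 0.10, adjusted p = 0.0386), with 1 of its other probe sets at -0.20. Of 22 cell cycle genes the cyclin gene Ccnd1, which acts at entry into the cycle, was at 473 and 350 at 5.5 mM and at 194 and 255 at 3 mM and rose by 0.83 (SE 0.15, adjusted p = 0.00315). Of these 22 genes 13 were under 50 on all 4 arrays, among them Mki67 (0.15) and Top2a (-0.09), which did not pass. P4ha1 passed only without replicate 2 at 5.5 mM (highest adjusted p = 0.195), Ccnd1 missed the threshold without replicate 1 of either group (highest adjusted p = 0.101), and Bhlhe40 and Map1lc3b did not pass whichever array was left out (adjusted p = 0.0616 to 0.334).

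**Figure D3:**
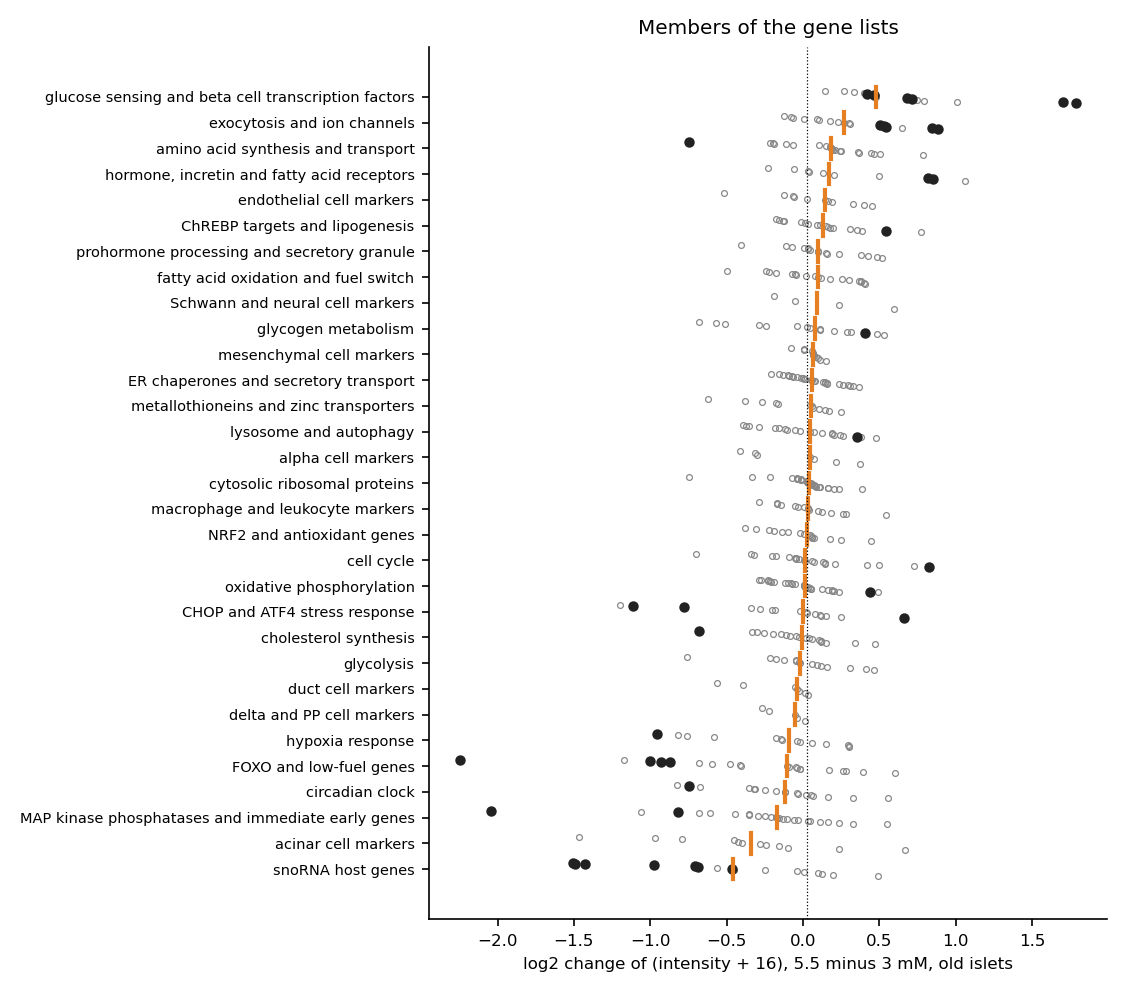
Log2 change of (intensity + 16), 5.5 minus 3 mM, for each measured member of the 23 pathway and 8 cell type lists in old islets, with filled points for members that passed the threshold, open points for the others and an orange bar at the list's median. The dotted line is the median of all genes, 0.03. The list of glucose sensing and beta cell transcription factors has a median of 0.48 and that of small nucleolar RNA host genes one of -0.46.

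No marker of another cell type passed in any of the 8 lists, which cover alpha, delta and PP, acinar, duct, endothelial, mesenchymal, Schwann and neural cells, macrophages and leukocytes. Gcg and Ppy, among the alpha, delta and PP markers, lay near the highest intensity of each array. Whether a change at such levels would be seen was not tested. The 12 measured acinar markers had the largest median shift of these lists, -0.34, with summed intensities of 504 and 573 at 5.5 mM and 399 and 943 at 3 mM, so the groups overlapped, and 6 of the 12 were under 50 on all 4 arrays. The endothelial sum was 730 and 786 at 5.5 mM, against 578 and 812 at 3 mM, the mesenchymal sum 2485 and 3379, against 2139 and 3533, and the macrophage and leukocyte sum 4052 and 3491, against 4165 and 3331. All 3 overlapped as well. In these 3 and in the acinar sum, the same replicate number was the higher at both concentrations. No measured list member was at 0 on any of the 4 arrays. Whether these levels take part in the changes of single genes was not tested.

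The levels at 5.5 mM were then set beside those of old islets that were fresh, at 3 mM and at 11 mM. These comparisons share the 5.5 or the 3 mM arrays with the one above, so the steps are not independent, and each step's own values are given side by side. For some genes the level at 5.5 mM lay near that at 11 mM. Snhg1 was at 479 and 599 in fresh islets, 2168 and 1542 at 3 mM, 675 and 594 at 5.5 mM and 421 and 573 at 11 mM. Depp1 was at 334 and 186 in fresh islets, 1031 and 465 at 3 mM, 134 and 133 at 5.5 mM and 109 and 152 at 11 mM. Eppk1 was at 61 and 43, then 240 and 192, 47 and 67, and 66 and 85 in the same order. In these 3 genes the 3 mM arrays stood apart from all other old islets, and 11 against 5.5 mM gave -0.36 (SE 0.18, adjusted p = 0.293), -0.04 (SE 0.42, adjusted p = 0.974) and 0.33 (SE 0.27, adjusted p = 0.577) in the order given, which does not show that the levels are equal. Rnf182 at 178 and 219 at 5.5 mM and 240 and 171 at 11 mM, Snrpa1 at 312 and 374 and at 292 and 368, and Ret at 714 and 911 and at 927 and 921 overlapped or nearly met in the same way.

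For other genes the step between 5.5 and 11 mM was also past the threshold. Zfas1 was at 176 and 211 in fresh islets, 1347 and 1439 at 3 mM, 524 and 446 at 5.5 mM and 223 and 225 at 11 mM, and fell by 1.06 between 11 and 5.5 mM (SE 0.15, adjusted p = 0.000378). Fer1l6 was at 291 and 361 in fresh islets, 41 and 32 at 3 mM, 121 and 132 at 5.5 mM and 423 and 453 at 11 mM, a further rise of 1.67 (SE 0.31, adjusted p = 0.0036). Aqp4 rose by 1.08 (SE 0.20, adjusted p = 0.00319) and Fkbp1b by 1.02 (SE 0.21, adjusted p = 0.00754) over the upper step. Slc2a2 was at 7189 and 5715 in fresh islets, 817 and 695 at 3 mM, 2520 and 2460 at 5.5 mM and 6884 and 4765 at 11 mM, and its upper step of 1.20 (SE 0.35) did not pass (adjusted p = 0.0583). G6pc2 was at 9312 and 7795, then 1321 and 1585, 4754 and 5352, and 8120 and 7738, with an upper step of 0.65 (SE 0.22) that did not pass either (adjusted p = 0.0984). For Slc2a2 and G6pc2 all 4 groups kept this order without overlap except that the fresh arrays and those at 11 mM overlapped.

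Yet other genes were called over the upper step and not over the lower one. Txnip was at 3123 and 1912 in fresh islets, 364 and 319 at 3 mM, 266 and 336 at 5.5 mM and 1305 and 1037 at 11 mM, and rose by 1.90 between 11 and 5.5 mM (SE 0.20, adjusted p = 1.63e-05). Stbd1 was at 10 and 21 in fresh islets, 765 and 704 at 3 mM, 519 and 394 at 5.5 mM and 71 and 65 at 11 mM, and fell by 2.48 over the upper step (SE 0.27, adjusted p = 2.63e-05). Nupr1 was at 1270 and 1375 in fresh islets, 6567 and 5969 at 3 mM, 6709 and 4420 at 5.5 mM and 1846 and 2018 at 11 mM. In Txnip and Nupr1 the 3 and 5.5 mM arrays overlapped and lay away from those at 11 mM and the fresh ones, and in Stbd1 they lay nearer to each other than to these. Nupr1 fell by 1.49 (SE 0.21, adjusted p = 0.00036), Trib3 by 1.65 (SE 0.30, adjusted p = 0.00309), and Pcsk1 rose by 1.29 (SE 0.17, adjusted p = 0.000179) over the upper step. Ddit3 passed over both, with 331 and 418 in fresh islets, 5125 and 4540 at 3 mM, 3571 and 2209 at 5.5 mM and 649 and 864 at 11 mM (-1.88, SE 0.20, adjusted p = 1.72e-05 for 11 against 5.5 mM). Over the upper step 549 genes changed, 2.35% of those tested rising and 2.01% falling. Whether a gene's lower step differs in size from its upper step was not tested.

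**Figure D4:**
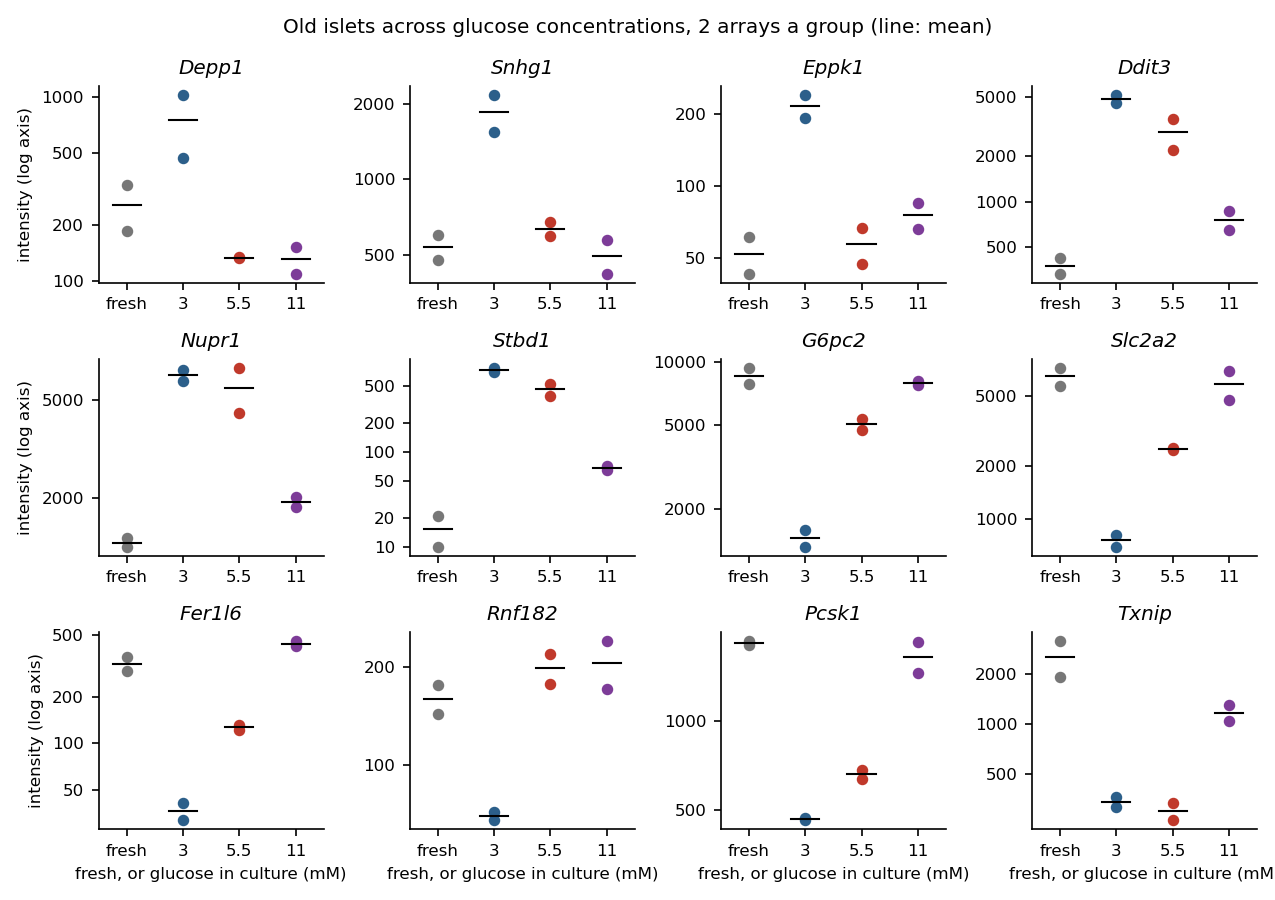
Deposited intensity on log axes of 12 genes in old islets that were fresh or cultured at 3, 5.5 or 11 mM glucose, with 1 point per array (2 a group) and a line at the mean. In Depp1, Snhg1 and Eppk1 the 3 mM points stand above all others, while in Nupr1 and Txnip the 3 and 5.5 mM points overlap, at 266 to 364 for Txnip, beside 1037 to 1305 at 11 mM.

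Young islets were compared over the same step on arrays that share none with the old islets. Their arrays belong to another set by the Gapdh control, whose 5' to 3' ratio was 0.14 to 0.169, against 1.33 to 1.42 on the old arrays, so levels were not compared between ages and only the change within each age was. In young islets 762 genes changed (6.06%), 374 rising (2.97%) and 388 falling (3.08%). Past the threshold in the same direction at both ages were 255 genes, which is 43.2% of the old calls and 33.5% of the young calls, and Rbm14 alone passed in opposite directions. Of the 301 genes that rose in old islets 291 were also higher at 5.5 mM in young islets, with a median change of 0.49, and of the 289 that fell 272 were also lower, with a median of -0.43, beside 0.02 for all genes. Across all 12580 genes the changes at both ages correlated at 0.542, where genes are not independent replicates.

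Several of the largest changes had similar values at both ages. Slc2a2 differed by 1.70 in old and 1.72 in young islets, a difference between the ages of -0.02 (95% interval -1.06 to 1.02). For G6pc2 the changes were 1.79 in old and 1.61 in young islets (interval of the difference -0.46 to 0.82) and for Olfm4 1.88 and 2.001 (-0.85 to 0.61). Depp1 was at -2.25 in old and -2.05 in young islets, Snhg1 at -1.51 and -1.40, Snhg16 at -1.43 and -1.46 and Slc3a2 at -0.75 in both. The intervals are not adjusted for the number of genes. Of the lists, 6 of 15 glucose sensing genes rose in old and 6 in young islets, and 7 of 16 host genes fell in old and 6 in young islets. Of the exocytosis and ion channel genes 5 rose in old and 2 in young islets, of the receptors 2 and 0, and of the prohormone genes 0 and 2. Of the CHOP and ATF4 genes 2 fell in old and 4 in young islets, and of the glycolysis genes 0 and 2. These counts were not tested against each other.

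No gene passed limma's test of the difference between the old and the young change, with 659 genes at an unadjusted p under 0.05 and a smallest adjusted p of 0.0689. That smallest value belonged to Rbm14, which encodes a coactivator of nuclear bodies and which is outside the rule for named genes and was picked after its values were seen. It was at 182 and 277 at 5.5 mM and 499 and 361 at 3 mM in old islets, a fall by 0.87 (SE 0.17), and rose by 0.59 (SE 0.17) in young islets, read by a probe set that can also bind related transcripts. The fall in old islets missed the threshold without replicate 1 at 5.5 mM or replicate 1 at 3 mM (highest adjusted p = 0.149). The difference of -1.46 (SE 0.24) passed without replicate 2 at 5.5 mM (adjusted p = 0.00566) and without replicate 2 at 3 mM (0.0237) of old islets. Among the named genes, differences of about that size or larger that did not pass were those of Ces5a and Gamt. Ces5a was at 1.23 in old and -0.54 in young islets (interval 0.80 to 2.75, adjusted p = 0.597), and Gamt at -1.15 and 0.31 (-2.25 to -0.66, adjusted p = 0.597). Gaa had the smallest unadjusted p of the named genes for this difference (limma, 0.0001). It was at 0.41 in old and -0.37 in young islets (difference 0.77, interval 0.44 to 1.11, adjusted p = 0.597). Zfas1 fell by 1.50 in old and by 0.81 in young islets (difference -0.68, interval -1.13 to -0.24, adjusted p = 0.687). Nupr1 was at -0.20 in old and fell by 1.17 in young islets (difference 0.97, interval 0.35 to 1.59, adjusted p = 0.687), Pdx1 was at 0.79 in old and rose by 1.39 in young islets (difference -0.60, -1.35 to 0.15), and Ppp1r15a fell by 1.11 in old and by 1.77 in young islets (difference 0.66, 0.11 to 1.20, adjusted p = 0.856). A call at 1 age and not at the other was thus not shown to differ between the ages.

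**Figure D5:**
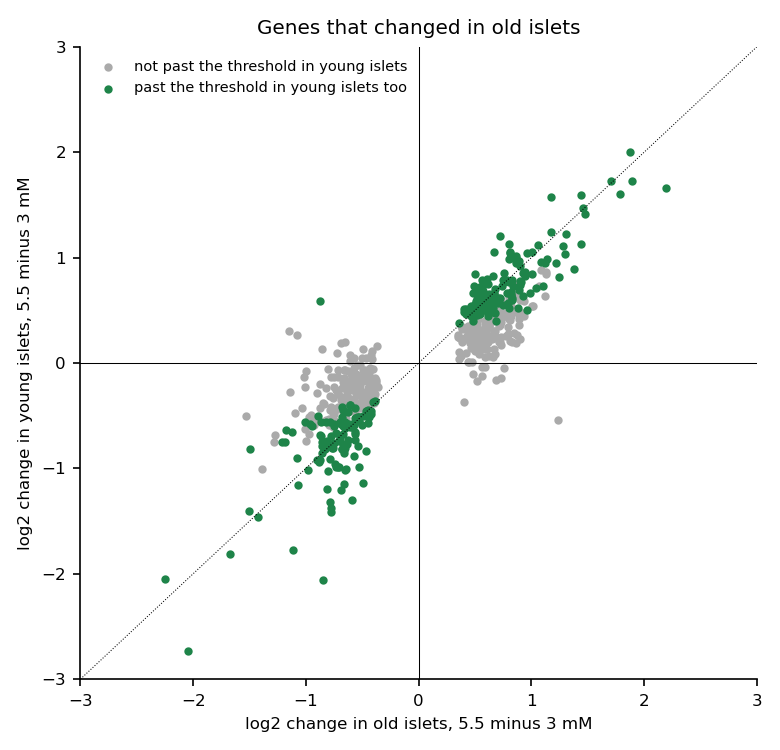
Each point is 1 of the 590 genes that changed in old islets, with its log2 change of (intensity + 16) in old islets on the horizontal axis and in young islets on the vertical axis, 5.5 minus 3 mM in both. Green points passed the threshold in young islets too and grey ones did not; 563 of the 590 points have the same sign at both ages, and Ces5a, at 1.23 and -0.54, is the lowest point on the right.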

How the data were processed

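Gene expression was measured on 26 Affymetrix mouse arrays, 1 per sample, from 50 ng RNA amplified over 2 cycles. The deposited values are whole-number intensities from MAS5, per the submitters' processing notes, whose version is not given in the sources used here. Their trimmed mean, leaving out 2% at each end, is 150 on every array. Of 45101 probe sets 34945 carried 1 gene symbol, 932 several and 9160 none, and 64 were controls. Those with 1 symbol above the array's median on at least 2 of 26 arrays were kept, and the brightest one stood for each gene, which left 12580 genes. Symbols were updated through RefSeq on GRCm38.p6.

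All 26 arrays were fitted on log2(intensity + 16) with limma 3.58.1 in R 4.3.3 (lmFit, and eBayes with an intensity trend), with Benjamini-Hochberg adjustment over all genes. The fit had 13 means for 12 labelled groups, since the young islets at 11 mM span 2 sets of arrays that differ in the Gapdh control ratio (above or below 0.5). Before use, the fit was tested on simulated data. Of log2 changes of 0.5, 1, 1.5 and 2 put in, 26.4%, 77.6%, 92% and 98% were called in the right direction. With 26.4% recovered, many changes of about 0.5 would be missed. Of the simulated calls 6.01% were false. The simulated noise was independent between genes and arrays, so a shift shared by the genes of an array was not covered. The number of arrays limits the precision.

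Named were the 15 largest rises and falls, up to 3 called members of each list by adjusted p, and 12 genes always shown. Another 29 genes, among them Rbm14, Foxa2, Neurod1, Hnf4a, Sytl4, Rab27a, Cdkn1a, Snhg6, Snhg12, Snhg17 and Cct6a, and all members given as not passing that are not of the 12, were chosen after their values were seen. The genes and the 31 lists were chosen with earlier results of these data known. Alternatives covered the array sets, the arrays fitted, the offset, normalization, filter, probe set rule, intensity trend, a replicate block and each array of old islets at 5.5 or 3 mM left out in turn.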

Additional observations from a re-analysis of the deposited data

How the results depend on the processing

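The 590 changed genes became 83 with 1 mean for young islets at 11 mM, 926 with only the 4 arrays compared, 1387 with the replicate number as a block, and 54 to 311 with 1 of the 4 arrays left out. The other alternatives stayed within 1.5 times of 590, with 807 for the 8 arrays of old islets and 419 for the mean of a gene's probe sets. Labels give the replicates numbers and do not say whether equal numbers pair the samples. Deviations of same-numbered arrays correlated at 0.116 between 5.5 and 3 mM and at 0.0556 to 0.196 between the other pairs of old groups. All these correlations were positive and small. The main fit did not pair the samples, and whether equal numbers share a preparation was not tested. All 590 genes kept their sign in every alternative except the mean of probe sets, where 570 did. Of the 51 named genes that changed, 11 passed whichever array was left out, 23 passed with 1 mean for young islets at 11 mM, and all 51 kept their sign. The mean of probe sets ended the calls of 13 of them, among them Cacna1c (0.19), Lss (-0.06), Rph3al (0.14), Ddit3 (-0.41), Snhg16 (-0.51), Psme3 (-0.44), Tma16 (-0.56), Cplx2 (0.60) and Vsnl1 (0.88). The sign turned only for genes that had not passed: Gcg was at -0.029 after quantile normalization and at -0.064 to 0.15 with an array left out (lowest without replicate 1 at 3 mM), Sst at -0.16 to 0.063 (highest without replicate 2 at 3 mM), Trib3 at -0.0053 to 0.22 (lowest without replicate 1 at 5.5 mM) and Nupr1 at -0.50 to 0.0995 (highest without replicate 2 at 5.5 mM). For the difference between old and young islets the count of 0 became 1 (Rbm14) with the replicate block and 0 to 1 with an array left out. Apart from the left-out arrays and the single mean, whose construction changes the samples or the estimate of spread, the cause was not tested.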

Other observations

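The following 9 genes rose at 5.5 against 3 mM in old islets. They were chosen one by one after their values were seen and stand for no group. Pcx, which encodes the anaplerotic enzyme pyruvate carboxylase, was at 478 and 498 at 5.5 mM and at 209 and 233 at 3 mM and rose by 1.09 (SE 0.18, limma adjusted p = 0.00199). Pclo, the presynaptic scaffold piccolo, was at 1332 and 1328 at 5.5 mM, against 589 and 619 at 3 mM (1.12, SE 0.20, adjusted p = 0.00275), and Cadps, a vesicle priming protein, rose by 0.81 (SE 0.16, adjusted p = 0.00538). In each of these genes both 5.5 mM arrays were above both 3 mM arrays. Atp2a3, a calcium pump of the endoplasmic reticulum, rose by 0.88 (SE 0.16) and Slc8a1, a sodium-calcium exchanger, by 1.12 (SE 0.21). Ddc, the decarboxylase of aromatic amino acids, was at 4195 and 4100 at 5.5 mM and at 2171 and 1959 at 3 mM and rose by 1.00 (SE 0.23, adjusted p = 0.0141). The receptors Cnr1, of cannabinoids, and Ffar2, of short-chain fatty acids, rose by 1.13 (SE 0.26) and 0.90 (SE 0.18). The protease gene Prss53 was at 999 and 1011 at 5.5 mM, against 434 and 439 at 3 mM, rose by 1.17 (SE 0.17, adjusted p = 0.000709) and passed whichever array was left out, but not with a single mean for young islets at 11 mM (adjusted p = 0.0511). The others missed the threshold without replicate 1 at 3 mM (highest adjusted p for any array left out 0.0559 to 0.177), and Cnr1 and Ddc did not pass whichever array was left out.

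The following 9 genes fell and were chosen in the same way. The genes Nolc1 (-0.69, SE 0.12), Gnl3 (-0.75, SE 0.16), Noc2l (-0.69, SE 0.15), Mybbp1a (-0.61, SE 0.12) and Las1l (-0.84, SE 0.16), whose proteins are known from the nucleolus, were lower on both 5.5 mM arrays than on either 3 mM array, with Nolc1 at 203 and 182, against 318 and 322. Xpo1, the exportin of nuclear export, was at 838 and 817 at 5.5 mM and at 1748 and 1297 at 3 mM and fell by 0.85 (SE 0.15, adjusted p = 0.00331). The chaperone genes Hspa4 and Stip1 fell by 0.57 (SE 0.11) and 0.63 (SE 0.12). Nudc, which works with the chaperone HSP90, was at 844 and 779 at 5.5 mM, against 1588 and 1391 at 3 mM, fell by 0.86 (SE 0.12, adjusted p = 0.000584) and passed whichever array was left out, but not with that single mean (adjusted p = 0.0559). Nolc1 missed the threshold without replicate 2 at 5.5 mM (adjusted p = 0.0602) and Hspa4 missed it without replicate 1 at 3 mM (0.0957). Gnl3 did not pass whichever array was left out (highest 0.117), and Noc2l, Mybbp1a, Las1l, Xpo1 and Stip1 missed the threshold without either of these arrays (highest 0.0752 to 0.205), with Noc2l lost without replicate 1 at 5.5 mM too. Of the genes in both paragraphs, Pclo, Cadps, Atp2a3, Slc8a1, Las1l and Hspa4 passed with the single mean, and the others did not.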
